A study of Mus musculus with 18 samples.

Results

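The comparison described here is that of O9-1 NC cells with a partial knockdown of Yap and Taz (Y/T dKD+FGF2, 3 samples) against cells with control siRNA (Ctrl+FGF2, 3 samples), all treated with FGF2 and harvested at day 2.5 (d2.5) of osteoblast differentiation. These 6 of the 18 RNA-seq samples were chosen by their labels for day, siRNA and treatment, and not by any measured value. O9-1 is a multipotent NC line from the heads of E8.5 mouse embryos, and the labels give its genotype as wildtype in every group. All samples received siRNA by transfection, either a scramble control or pools against Yap and Taz, and all were grown in osteoblast differentiation medium. A Ctrl+vehicle group (control siRNA without FGF2, 3 samples at d2.5) gave background values and shared the fit, and the same 3 groups at day 5 (d5) served for a side-by-side view. No group combined the knockdown with vehicle, so an effect of the knockdown that depends on FGF2 and one that does not cannot be told apart. The line is 1 cell population, and nothing says that the replicates came from separate cultures, so p-values measure the spread between these samples, which may be technical.

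Yap and its paralog Taz (encoded by Wwtr1) are coactivators without a DNA-binding domain of their own. They bind Tead factors on DNA and switch on genes of growth, cytoskeleton and matrix, and the kinases of the Hippo pathway (Stk3, Stk4, Lats1, Lats2) hold them in the cytoplasm. In NC-derived cells both proteins are known to bear on the choice between a proliferating progenitor and a bone-forming cell, and the study asked how far the response to FGF2 passes through them.

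The 6 samples held between 11450342 and 14004459 counts on genes, from 12821115 to 14004459 with control siRNA and from 11450342 to 11988618 with the knockdown. Levels are given as CPM, the usual per-library scaling of counts with TMM factors, and changes as log2 fold changes of Y/T dKD+FGF2 over Ctrl+FGF2, with the standard error (SE) and the Benjamini-Hochberg adjusted p of edgeR's quasi-likelihood test over all 13677 genes tested. A gene is called here when the adjusted p is under 0.05. The 12 listed NC markers were all tested, with a summed level of 2325 to 2357 CPM in Ctrl+FGF2 and 2253 to 2320 CPM in Y/T dKD+FGF2 samples. The defining markers Sox10 and Foxd3 had no counts in any of the 6 samples, as did Tyr, Tyrp1 and Dct of melanocytes and Adgre1, Itgam, Aif1, Lyz2 and Tyrobp of macrophages.

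Both siRNA targets were lower in every knockdown sample, and neither was close to absent. Yap1 stood at 140, 134 and 136 CPM in the Ctrl+FGF2 samples and at 68.6, 69.6 and 73.7 CPM in the Y/T dKD+FGF2 samples. Wwtr1 stood at 236, 233 and 238 CPM against 149, 138 and 143 CPM. The groups did not overlap for either gene, and the knockdown samples kept 51.5% of Yap1 and 60.8% of Wwtr1. Yap1 fell by 0.96 (SE 0.04, adjusted p = 9.7e-17) and Wwtr1 by 0.72 (SE 0.04, adjusted p = 2.6e-15) on the log2 scale, so everything that follows describes cells with reduced, not missing, Yap and Taz RNA. RNA levels do not say how much of either protein remained.

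Changes were many and small. Of the 13677 genes tested, 3345 were called (24.5%), 1483 of them higher (10.8%) and 1862 lower (13.6%). The median log2 fold change was 0.20 among the genes called higher and −0.27 among those called lower. A change of at least 2-fold was seen for 55 of the called genes that rose and 26 that fell. All knockdown samples lay on 1 side of all Ctrl+FGF2 samples for 5387 genes (39.4%). This held for 3227 of the 3345 called genes, so a lack of overlap adds little to a call. Replicates were close, with a biological coefficient of variation of 0.0316 at d2.5.

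The direction of a small change at d2.5 went with the base composition of the gene. GC content here is the percentage of G and C in a gene's longest annotated transcript. With the 11723 genes of mean log2 CPM 1 or more split into 4 equal sets, in the low-GC set (31.0% to 44.7%), 795 were called higher (27.1%) and 77 lower (2.63%), whereas in the high-GC set (54.1% to 73.7%) 42 were called higher (1.43%) and 1171 lower. Relative to the mean of the Ctrl+FGF2 samples, the median log2 level of the low-GC set was 0.0951, 0.0675 and 0.126 higher in the 3 knockdown samples, and that of the high-GC set changed by −0.169, −0.119 and −0.204. The single Ctrl+FGF2 samples stayed within −0.0057 and 0.0054 in both sets, and the Ctrl+vehicle samples were between −0.0771 and −0.0579 in the low-GC and between 0.0373 and 0.0556 in the high-GC set. Over 11723 genes, Spearman's rho of log2 fold change and GC content was −0.564 at d2.5 and −0.104 at d5, and that of log2 fold change and transcript length at d2.5 was 0.0864. These are descriptions across genes, which share their libraries and are not independent replicates.

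**Figure D1:**
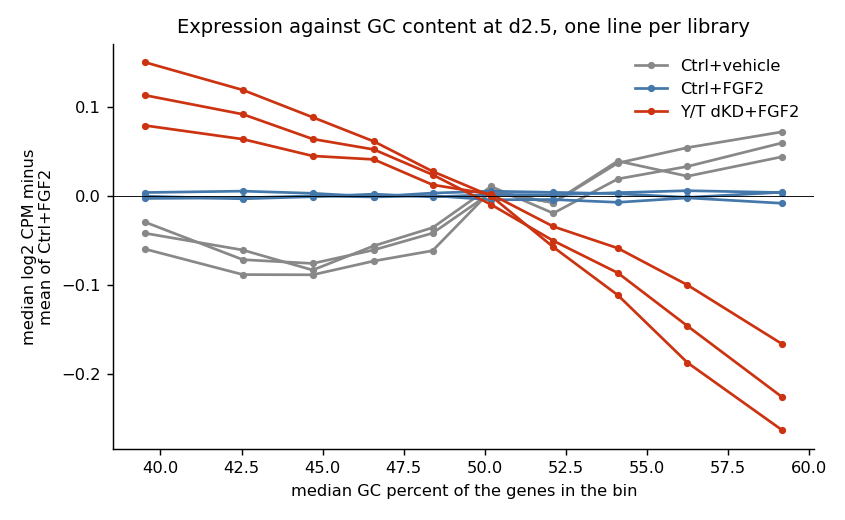
Median log2 level relative to the mean of the Ctrl+FGF2 samples (vertical axis) for 10 bins of genes by GC content in percent (horizontal axis), with 1 line for each d2.5 sample. The 3 knockdown lines run from above 0 in GC-poor genes to below 0 in GC-rich genes, the Ctrl+FGF2 lines stay at 0 and the Ctrl+vehicle lines slope the other way.

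For this reason counts of gene lists are also given after a GC correction, an offset in every sample that follows a smooth curve in GC content, drawn without knowledge of the groups and added after seeing the data. With it rho was −0.0071, and 1780 genes were called, 667 higher (4.88%) and 1113 lower (8.14%). Of the 3345 calls, 1280 (38.3%) were kept in the same direction, which was 32.9% of those higher and 42.5% of those lower. In the corrected fit 46 genes were called at least 2-fold higher and 16 at least 2-fold lower. Counts of every list below are to be read against 10.8% of all genes higher and 13.6% lower, and 4.88% and 8.14% with the correction. The correction would also take out a regulated change that happened to follow GC content, and which of these the slope reflects was not tested.

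Among the partners of Yap and Taz, the Tead factors that place them on DNA were near their control levels. Tead1, Tead2 and Tead3 had log2 fold changes of 0.02, 0.00 and −0.12 and were not called. Tead4 was at 67.0, 62.7 and 63.4 CPM against 57.1, 53.9 and 56.3 CPM, a fall of 0.21 (SE 0.05, adjusted p = 0.0024) that was −0.03 and not called with the GC correction. Vgll3, a cofactor that competes for Tead, was at 40.0, 39.1 and 40.3 CPM against 30.8, 28.6 and 29.1 CPM, with no overlap (log2 fold change −0.43, SE 0.07, adjusted p = 4.8e-05, and −0.56 with the correction). Of the 8 partners tested, 4 were called lower including the siRNA targets themselves, and 3 were lower and 1 higher with the correction, the latter Tead2 (0.17).

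The upstream arm of the pathway was called about as often as other genes. Of the 24 Hippo kinases and scaffolds tested, 2 were called higher (8.33%) and 5 lower (20.8%), against 10.8% and 13.6% of all genes. Their median was −0.03, and 1 was called higher and 3 lower with the GC correction. Neither Stk3, Stk4, Lats1 nor Lats2 was called, at 0.05, 0.06, 0.07 and −0.04. The called genes with the largest changes were Amotl2, which encodes a scaffold that holds Yap at junctions, Wwc1, which encodes the activator Kibra, and the kinase gene Taok3. Wwc1 was at 20.6, 19.9 and 18.2 CPM against 13.7, 16.5 and 14.1 CPM without overlap (log2 fold change −0.40, SE 0.09, adjusted p = 0.0017), a call that was lost with the GC correction (−0.25).

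Established Yap/Taz target genes responded unevenly. Of the 21 tested, 8 fell, 4 rose and 9 were not called, with a median of −0.08 (0.0013 over all genes tested), and with the GC correction 7 fell and 1 rose. Ankrd1, which encodes a muscle ankyrin repeat protein and is among the most used readouts of Yap activity, was at 30.8, 28.1 and 30.3 CPM against 18, 19.2 and 21.2 CPM. The groups did not overlap, and 65.5% of the level remained (log2 fold change −0.61, SE 0.08, adjusted p = 5.6e-07). Amotl2, at 57.2, 57.1 and 60.4 CPM against 42.3, 46.0 and 40.1 CPM, fell by 0.44 (SE 0.06, adjusted p = 1.0e-06). Gadd45a, a growth arrest and DNA damage gene, was at 28.9, 34.0 and 31.8 CPM against 19.6, 24.1 and 20.7 CPM (log2 fold change −0.55, SE 0.09, adjusted p = 2.3e-05). All knockdown samples were below all controls for these genes, and the 3 calls were kept with the GC correction (−0.66, −0.30 and −0.58).

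The CCN genes, the other standard readouts, moved less than the knockdown itself. Ccn1 was at 154, 147 and 156 CPM against 135, 132 and 125 CPM, a fall of 0.22 (SE 0.05, adjusted p = 8.0e-04). Ccn2 was at 171, 170 and 175 CPM against 193, 179 and 180 CPM. The knockdown samples of Ccn2 were thus all above the controls, on the side opposite to Ccn1, but its log2 fold change of 0.10 did not pass the test (SE 0.04, adjusted p = 0.058). It passed in a fit of the 6 samples alone (adjusted p = 0.034) and with counts of both strands, where it was 0.21 (adjusted p = 2.0e-04). Nt5e, which encodes the ecto-nucleotidase CD73, rose from 21.6, 22.5 and 24.0 CPM to 33.1, 29.1 and 30.4 CPM (log2 fold change 0.44, SE 0.09, adjusted p = 2.8e-04, and 0.39 with the correction).

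Since Yap and Taz reach DNA through Tead factors, the promoter windows of the called target genes and of the 12 genes with the largest falls were searched for the core of the Tead motif, CATTCC, on both strands (GGAATG on the other). A window lies around a RefSeq transcription start on GRCm38.p6, most of it upstream. The core is in 4817 of all 32851 windows (14.7%) and in at least 1 window of 16.6% of genes. Of the 12 called targets 8 matched a window and 5 of these held the core. Of the 12 largest falls all matched, with 19 windows, and 4 genes held it, among them Yap1. TGANTCA, the AP-1 motif, was found for 8.97% of genes and for none of these. The targets were listed as established Yap/Taz target genes, and Yap1 is itself an siRNA target. Neither count can therefore serve as a test against the share of all genes. Of the windows with the core, 6 are printed in order of log2 fold change, 5′ to 3′ on the strand of the gene, with the core in capitals, to show where the letters lie in the promoters of genes that fell. The other 3 belong to Ccn1, Crim1 and Axl, the called targets with the core that changed least (−0.22, −0.40 and −0.08). The call of Axl was lost with the GC correction and in 6 of 9 refits that lacked 1 sample each (adjusted p up to 0.194). They are Cacng7 (chr7:3332575-3332874, plus strand), Lamb3 (chr1:193301993-193302292, plus), Yap1 itself (chr9:8004547-8004846, minus), Epha1 (chr6:42373219-42373518, minus), Ankrd1 (chr19:36119795-36120094, minus, with 2 matches) and Amotl2 (chr9:102717554-102717853, plus). A match is a description of the letters and not a bound site.
Cacng7: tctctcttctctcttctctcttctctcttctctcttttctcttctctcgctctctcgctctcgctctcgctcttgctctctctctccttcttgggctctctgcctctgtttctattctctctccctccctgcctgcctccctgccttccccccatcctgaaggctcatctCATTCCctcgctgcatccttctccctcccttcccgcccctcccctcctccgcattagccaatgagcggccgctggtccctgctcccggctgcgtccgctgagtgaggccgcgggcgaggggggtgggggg
Lamb3: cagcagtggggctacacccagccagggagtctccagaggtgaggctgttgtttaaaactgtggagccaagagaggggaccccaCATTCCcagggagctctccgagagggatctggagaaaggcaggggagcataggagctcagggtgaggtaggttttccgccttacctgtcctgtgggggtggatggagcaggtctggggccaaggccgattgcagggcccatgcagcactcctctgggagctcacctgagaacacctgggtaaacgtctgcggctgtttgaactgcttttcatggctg
Yap1: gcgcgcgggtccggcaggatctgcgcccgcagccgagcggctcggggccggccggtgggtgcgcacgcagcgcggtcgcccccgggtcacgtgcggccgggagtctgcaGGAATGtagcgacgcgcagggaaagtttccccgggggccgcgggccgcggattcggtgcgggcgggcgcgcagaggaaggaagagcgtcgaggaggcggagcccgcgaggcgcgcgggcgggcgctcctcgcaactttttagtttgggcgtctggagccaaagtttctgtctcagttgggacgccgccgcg
Epha1: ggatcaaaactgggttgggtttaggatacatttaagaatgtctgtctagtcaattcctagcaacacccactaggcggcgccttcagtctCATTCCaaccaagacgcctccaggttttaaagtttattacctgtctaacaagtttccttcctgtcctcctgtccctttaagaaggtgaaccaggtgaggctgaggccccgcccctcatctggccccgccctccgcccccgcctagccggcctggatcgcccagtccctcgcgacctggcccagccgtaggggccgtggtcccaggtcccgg
Ankrd1: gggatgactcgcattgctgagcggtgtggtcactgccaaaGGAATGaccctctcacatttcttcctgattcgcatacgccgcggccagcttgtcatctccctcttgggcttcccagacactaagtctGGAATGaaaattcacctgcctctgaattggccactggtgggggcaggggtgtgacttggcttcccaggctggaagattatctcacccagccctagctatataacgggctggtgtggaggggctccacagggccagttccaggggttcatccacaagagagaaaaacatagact
Amotl2: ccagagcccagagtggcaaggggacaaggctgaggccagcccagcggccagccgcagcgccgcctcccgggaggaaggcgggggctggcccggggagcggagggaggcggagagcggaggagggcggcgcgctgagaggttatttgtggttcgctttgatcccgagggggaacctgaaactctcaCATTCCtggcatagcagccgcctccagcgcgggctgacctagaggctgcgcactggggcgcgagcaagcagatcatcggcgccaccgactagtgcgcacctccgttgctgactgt

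The 12 largest falls, among called genes of mean log2 CPM 1 or more whose groups did not overlap, ran from −1.49 to −0.92. Their groups are thus apart by choice. Adm, which encodes the vasodilator peptide adrenomedullin (chr7:110627661-110629820), was at 10.1, 9.93 and 11 CPM against 3.57, 3.64 and 3.85 CPM, so that 35.7% remained. Its log2 fold change was −1.49 (SE 0.14, adjusted p = 4.4e-09), with or without the GC correction. Sorbs2, which encodes an adaptor of actin and focal adhesions, was at 10.9, 10.3 and 11 CPM against 4.18, 3.81 and 3.68 CPM (log2 fold change −1.47, SE 0.13, adjusted p = 1.5e-09). Cdsn, the gene of corneodesmosin, a desmosome protein of the epidermis, was the most abundant of the 12 apart from Yap1, at 65.3, 72.1 and 68.5 CPM against 30.7, 38.1 and 31.5 CPM. It fell by 1.03 (SE 0.07, adjusted p = 6.8e-13). In each of these genes the lowest control sample was well above the highest knockdown sample.

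Further large falls were those of Lamb3, a laminin chain of basement membranes (−1.09), Cacng7, a subunit of calcium channels and AMPA receptors (−1.20), Kcna4, a potassium channel (−1.12), and Aqp5, a water channel (−0.97). Syk, a tyrosine kinase best known in blood cells, fell by 0.97, Epha1, an ephrin receptor, by 0.92, and Serpinb9b, a serine protease inhibitor gene, by 1.13. Epha1 lies on the strand opposite to Zyx at overlapping coordinates, and the counts used were those of the gene's own strand. The summed level of the epithelial markers was 26.0 to 27.2 CPM in Ctrl+FGF2 and 17.4 to 18.8 CPM in Y/T dKD+FGF2 samples, nearly all of it Krt19, while Epcam had 48 counts over the 3 controls and 59 over the 3 knockdown samples. Of the 9 epithelial markers 3 were tested and 1, Krt19, was called lower, and Krt5, Cldn4 and Esrp1 had no counts in any of the 6 samples. The part of these markers in the falls was not tested.

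The 12 largest rises, chosen in the same way among genes without overlap, ran from 1.06 to 1.87. Enpp1, which encodes the ectoenzyme that makes extracellular pyrophosphate, an inhibitor of mineral growth, was at 13.1, 14.3 and 15 CPM against 42.7, 41.9 and 45.2 CPM. This 3.06-fold rise (log2 fold change 1.61, SE 0.08, adjusted p = 7.9e-16) had the lowest adjusted p of the 12 largest rises apart from Dmp1 and Megf10. Rgs4, an inhibitor of Gq and Gi signaling, rose from 4.36, 4.26 and 3.76 CPM to 12.8, 12.6 and 13.8 CPM (log2 fold change 1.66, SE 0.13, adjusted p = 4.6e-11). Pcp4l1, whose product is a calmodulin-binding peptide, rose from 2.33, 2.71 and 2.70 CPM to 9.31, 8.77 and 10.3 CPM (log2 fold change 1.87, SE 0.15, adjusted p = 1.0e-10). The groups of all 3 genes were far apart, and with the GC correction the changes were 1.54, 1.57 and 1.92.

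Megf10, which encodes an engulfment receptor, was an abundant gene among the largest rises, at 52.2, 48.6 and 51.5 CPM against 121, 124 and 125 CPM (log2 fold change 1.28, SE 0.04, adjusted p = 2.3e-19). Lrrc15, a membrane protein of mesenchymal cells, rose by 1.42, Cdo1, the cysteine dioxygenase, by 1.34, Itgb3, the integrin β3 chain, by 1.18, Slc43a2, an amino acid transporter, by 1.18, Hapln1, a link protein of cartilage, by 1.14, and Arhgef6, an exchange factor for Rac and Cdc42, by 1.06. All of the 12 largest rises and the 12 largest falls were called with the GC correction too. Of the 12 rises, 9 were also called higher at d5 and 2 lower. Of the 11 falls that could be tested at d5, 8 were called lower, among them the siRNA target Yap1, and 1 higher. Over all genes tested on both days, 15.8% were called higher at d5 and 15.9% lower.

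**Figure D2:**
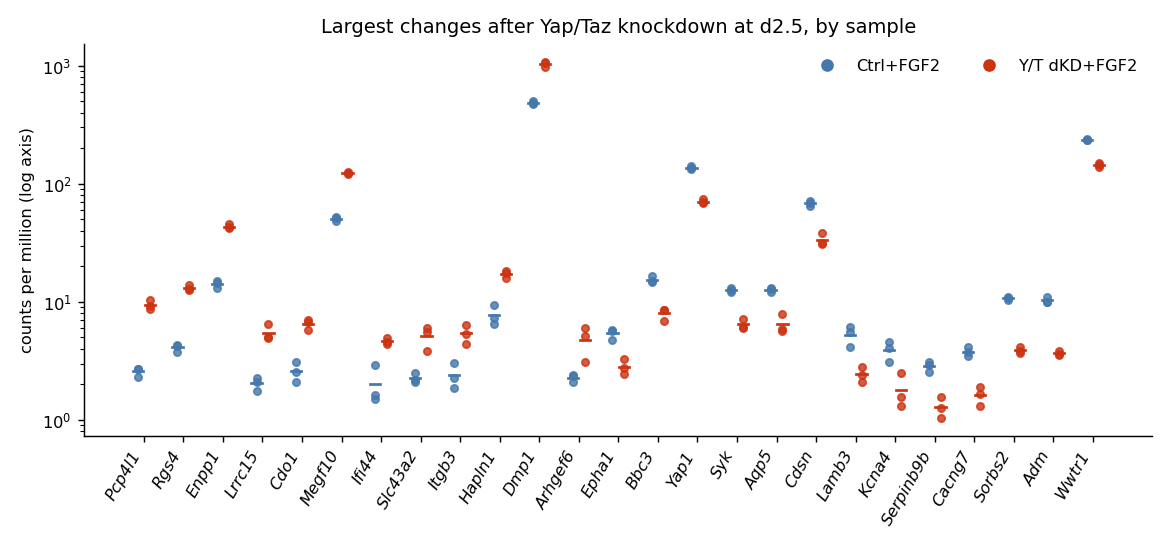
CPM on a logarithmic axis for Yap1, Wwtr1 and the genes with the largest falls and rises at d2.5. Each point is 1 sample of Ctrl+FGF2 or Y/T dKD+FGF2 and each bar is the mean of 3 samples. The genes with the largest falls and rises were chosen among genes whose groups do not overlap, so their separation follows from the choice. Yap1 and Wwtr1 are well above 0 after the knockdown.

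Other genes changed at higher levels of expression. Ly6a and Ly6c1, which encode GPI-anchored surface antigens (Ly6a is Sca-1, a marker of progenitor cells), were at 188, 182 and 184 CPM against 107, 119 and 107 CPM and at 82.6, 81.1 and 86.4 CPM against 45.3, 51 and 45.9 CPM. They fell by 0.74 (SE 0.04, adjusted p = 4.5e-14) and 0.81 (SE 0.05, adjusted p = 5.1e-13). These are members of a gene family with near-identical copies, and reads that fit several copies were not counted, so their values are uncertain. Dhrs9 and Cyp26b1, which encode enzymes that make and break down retinoids, fell by 0.74 and 0.66. On the side of the rises were Cdh11, the cadherin of osteoblasts and mesenchyme (0.84), Timp3, a matrix-bound inhibitor of metalloproteinases (0.65), Lifr, the receptor of leukemia inhibitory factor (0.61), and Sertad4 (0.60). Dnm3os rose by 0.57, a noncoding RNA that overlaps the microRNA genes Mir199a-2 and Mir214 on its strand, and reads shared with them could not be assigned.

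Genes of the actin cytoskeleton, most of them targets of the factor Srf and its cofactor Mrtfa, were lower as a group. Of 28 tested, 17 fell (60.7% against 13.6% of all genes) and 1 rose (median −0.21). With the GC correction 14 fell and none rose (median −0.12). Zyx, the gene of zyxin, which gathers at stressed actin fibers and focal adhesions, stood at 335, 343 and 343 CPM against 202, 222 and 206 CPM. With 61.6% of the control level left and no overlap, it fell by 0.70 (SE 0.04, adjusted p = 1.3e-14), or by 0.56 with the correction. Acta2, the smooth muscle actin, fell from 21.7, 22.6 and 22.8 CPM to 13, 15.1 and 13.6 CPM (log2 fold change −0.68, SE 0.13, adjusted p = 2.5e-04). Mrtfa was at 84.8, 76.4 and 84.4 CPM against 60.2, 65.9 and 55.8 CPM (log2 fold change −0.43, SE 0.06, adjusted p = 8.8e-07), and Srf fell by 0.41, a call that was lost with the correction (−0.14). The summed level of the 8 smooth muscle markers, most of it Smtn and Acta2, moved in the same direction, from 85.9 to 94.8 CPM in Ctrl+FGF2 and from 70.0 to 80.7 CPM in Y/T dKD+FGF2 samples, with Acta2 and Tagln called lower of 4 tested, and Cnn1, Myh11, Des and Myocd had 30 counts or fewer over the 6 samples. Tagln lost its call in 4 of 9 refits, each lacking 1 sample (Ctrl+FGF2 replicates 1 and 3 and knockdown replicates 1 and 2, adjusted p up to 0.116). The part of these markers in the list was not tested. In bulk samples fewer cells of a type and less RNA per cell cannot be told apart.

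The most abundant transcript of that list shows how fine the resolution was. Actb, the cytoplasmic β-actin often used as a constant reference, stood at 2989, 2945 and 3083 CPM against 2582, 2404 and 2435 CPM. It fell by 0.28 (SE 0.03, adjusted p = 3.7e-08) without overlap, and by the same amount with the GC correction. Vcl, the gene of vinculin, was the 1 member that rose (0.11), and its call was lost with the correction and in 3 of 9 refits that lacked 1 sample each (adjusted p up to 0.142).

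Integrins and focal adhesion genes changed in both directions (6 of 25 higher and 5 lower, median 0.01, and 6 and 4 with the GC correction). Itga3, the α3 chain that binds laminins, was at 108, 105 and 109 CPM against 70.6, 76.9 and 66.2 CPM, a fall of 0.60 (SE 0.05, adjusted p = 9.1e-10). Itgb3, whose product pairs with αv in a receptor of osteopontin and vitronectin, was low but rose from 1.88, 3.02 and 2.27 CPM to 5.39, 6.37 and 4.43 CPM (log2 fold change 1.18, SE 0.19, adjusted p = 2.3e-05). Both kept their calls and directions with the correction, at −0.43 and 1.20. Itga4 was called higher too (1.58), from levels under 0.5 CPM in every control.

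The calls among the collagens, a list with a median GC content of 56.5%, depended on the GC correction. Of 22 tested, 3 were called higher and 8 lower, but 9 higher and 5 lower with the GC correction (median −0.04 and 0.13). Col8a2, a short-chain collagen, kept its fall, at 7.06, 6.98 and 7.87 CPM against 4.26, 4.22 and 5.19 CPM (log2 fold change −0.68, SE 0.13, adjusted p = 2.4e-04, and −0.49 with the correction). Col5a1 and Col12a1 fell by 0.28 and 0.27 and were called at −0.11 and −0.31 with the correction. Among matrix glycoproteins and proteases, 9 of 34 rose and 6 fell, and 10 and 5 with the correction. Thbs2, a thrombospondin, rose from 33.1, 32.3 and 30.8 CPM to 46.5, 46.4 and 47.1 CPM (log2 fold change 0.54, SE 0.08, adjusted p = 3.0e-06), and its paralog Thbs1 was lower by 0.32 (SE 0.04, adjusted p = 5.4e-07). Plat, the tissue plasminogen activator, rose by 0.51, from at most 31.3 CPM in controls to at least 43.3 CPM.

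Genes of lipid synthesis were lower. Of the 24 genes of sterol synthesis and uptake, all of them tested, 19 fell and none rose (79.2% lower against 13.6% of all genes), with a median of −0.25. With the GC correction 21 fell and none rose (median −0.22). Mvd, a decarboxylase of the mevalonate pathway, was at 33.9, 33.7 and 33.7 CPM against 22.7, 24.9 and 21.1 CPM (log2 fold change −0.56, SE 0.07, adjusted p = 8.5e-07). Mvk, the mevalonate kinase gene, was at 49.6, 44.2 and 49 CPM against 35.1, 39 and 36.2 CPM, a fall of 0.37 (SE 0.06, adjusted p = 7.4e-05). All controls were above all knockdown samples in both genes. Among genes of fatty acid synthesis, 6 of 13 fell and none rose (5 with the correction), Fasn, the fatty acid synthase, by 0.40, Acss2, an acetyl-CoA synthetase, by 0.40 and Acly, the ATP-citrate lyase, by 0.26. The 8 adipocyte markers summed to 52.7 to 58.6 CPM in Ctrl+FGF2 and to 42.8 to 45.9 CPM in Y/T dKD+FGF2 samples, with both tested genes, Pparg and Fabp4, called lower (Pparg not in 2 of 9 refits that lacked 1 sample each, adjusted p up to 0.078), while Adipoq, Plin1, Lep and Cidec had no counts. Their part in the lipid genes was not tested.

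Genes of the amino acid response, many of them targets of the factor Atf4, were also nearly all lower. Of 25 tested, 20 fell and none rose (80.0%, median −0.25), and 18 fell with the GC correction (median −0.19). Slc7a5, the light chain of the large neutral amino acid transporter, stood at 574, 616 and 621 CPM against 445, 473 and 433 CPM (log2 fold change −0.42, SE 0.04, adjusted p = 2.6e-10). Chac1, which degrades glutathione, was at 51.1, 50.6 and 50.2 CPM against 39.2, 38 and 33.7 CPM (log2 fold change −0.45, SE 0.06, adjusted p = 8.3e-07), and Atf5 and Trib3 fell by 0.40 and 0.39. With the correction all 4 were still called, at −0.29, −0.29, −0.16 and −0.21. Atf4 itself fell by 0.19 from 633 to 650 CPM in controls to 553 to 572 CPM, but not with the correction (−0.07).

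Another metabolic group, genes of the hypoxia response and of glycolysis, fell with them. Of 34 tested, 21 fell (61.8% against 13.6% of all genes) and 1 rose (median −0.21). With the GC correction 17 fell and none rose (median −0.18). Pfkfb3, which makes the activator of phosphofructokinase, was at 8.94, 6.90 and 7.31 CPM against 4.52, 3.72 and 4.68 CPM (log2 fold change −0.84, SE 0.15, adjusted p = 9.7e-05). Ndrg1, a stress gene that rises in hypoxia, was at 119, 120 and 122 CPM against 74.1, 79.3 and 78.0 CPM (log2 fold change −0.64, SE 0.04, adjusted p = 2.0e-12). Egln3, an oxygen-sensing prolyl hydroxylase, fell by 0.45, Slc2a1, the glucose transporter Glut1, by 0.44 and Vegfa by 0.34. All controls were above all knockdown samples in these genes. Adm, the first of the 12 largest falls, is also a member of this list. Not every glycolytic gene moved: Ldha had a log2 fold change of −0.05 and was not called, and Pkm and Eno1 fell by 0.24 and 0.23 only without the correction. Pkm overlaps Gm49759 on its strand.

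**Figure D3:**
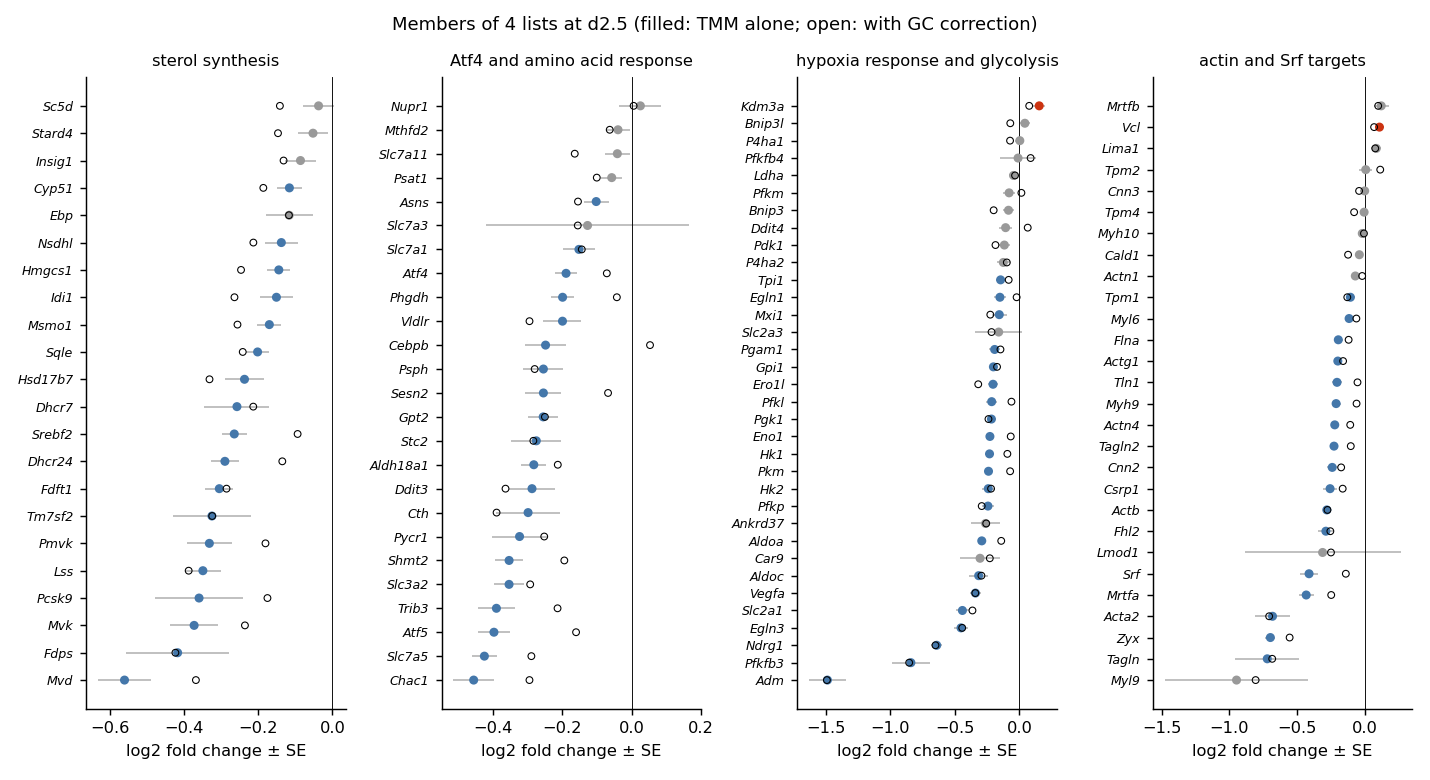
Log2 fold change with its SE (horizontal axis) for tested genes of the lists of sterol synthesis, Atf4 and amino acid response, hypoxia response and glycolysis, and actin and Srf targets. Blue marks genes called lower, red genes called higher and grey genes not called, and open circles give the value with the GC correction. Most points of each list are blue; over the full lists 19 of 24, 20 of 25, 21 of 34 and 17 of 28 genes were called lower, and some sterol genes are not drawn.

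Transporters and other metabolic lists were mixed. Of 13 solute carriers of glucose, lactate and glutamine 2 rose and 4 fell (1 and 5 with the GC correction). Slc16a1, the lactate transporter Mct1, went against the glycolytic genes, from 314, 326 and 319 CPM to 412, 392 and 410 CPM (log2 fold change 0.34, SE 0.03, adjusted p = 3.8e-09). Of 22 ER chaperones 3 rose and 7 fell (none and 8 with the GC correction), among them Serpinh1, the collagen chaperone Hsp47 (−0.27). Oxidative phosphorylation (4 higher and 5 lower of 33, and 2 and 5 with the correction) and ribosome biogenesis (4 and 4 of 32, and none and 1) had medians of −0.02 and −0.01, near that of all genes.

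Bone genes were higher as a list. Of 34 osteoblast genes tested, 14 rose and 3 fell (41.2% higher against 10.8% of all genes, median 0.31), and with the GC correction 13 rose and none fell (median 0.32). Dmp1, a matrix phosphoprotein of osteocytes, was at 497, 472 and 482 CPM against 1078, 975 and 1053 CPM, without overlap (log2 fold change 1.10, SE 0.03, adjusted p = 2.7e-20). The Ctrl+vehicle samples had 11.8 to 13.5 CPM, so the knockdown samples stood even further from vehicle than the Ctrl+FGF2 samples did. Ibsp, the bone sialoprotein, rose from 44.6, 42.9 and 43.7 CPM to 87.3, 80.4 and 82.3 CPM (log2 fold change 0.93, SE 0.05, adjusted p = 3.6e-15), a gene with a log2 fold change of −2.34 in Ctrl+FGF2 against Ctrl+vehicle. Spp1, the gene of osteopontin, was the most abundant, at 7415, 7306 and 7359 CPM against 9425, 8999 and 9389 CPM (log2 fold change 0.33, SE 0.03, adjusted p = 8.2e-11), and overlaps Gm42793 on its strand. Among the regulators, Runx2, the master factor of osteoblasts, was at 102, 95.5 and 96.3 CPM against 102, 102 and 109 CPM and was not called (0.09, SE 0.04, adjusted p = 0.11), and Sp7, which acts after it, rose by 0.46 (SE 0.13, adjusted p = 0.0098). Alpl, the alkaline phosphatase, had between 0 and 0.248 CPM in all 6 samples against 110 to 137 CPM in Ctrl+vehicle, too few counts in the 6 samples for a change to be detectable.

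Of 9 genes of phosphate and mineral handling, 5 rose and 1 fell, and with the GC correction 5 rose and none fell. They act on opposite sides of mineral growth. Fam20c, the kinase of secreted matrix phosphoproteins such as Dmp1, rose from 8.49, 8.53 and 9.29 CPM to 16, 13.9 and 15.3 CPM (log2 fold change 0.78, SE 0.11, adjusted p = 3.0e-06). Phex, an endopeptidase that restrains Fgf23, rose by 0.57 (SE 0.10, adjusted p = 1.3e-04). Mgp, an inhibitor of calcification, was at 210, 212 and 201 CPM against 296, 310 and 297 CPM (log2 fold change 0.53, SE 0.05, adjusted p = 9.1e-10), and Enpp1 and Ank, which supply the inhibitor pyrophosphate, rose by 1.61 and 0.23. Ank overlaps Mir7117 on its strand.

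Of 11 cartilage genes tested, 4 rose and 1 fell, with and without the GC correction (median 0.69). Hapln1 was at 7.36, 6.44 and 9.43 CPM against 17.5, 15.8 and 18.1 CPM (log2 fold change 1.14, SE 0.14, adjusted p = 7.9e-07), and Col10a1, a collagen of hypertrophic cartilage, was at 0.901, 0.853 and 0.709 CPM against 2.44, 2.32 and 2.17 CPM (log2 fold change 1.48, SE 0.26, adjusted p = 9.6e-05). Sox9, the master factor of cartilage, went the other way, from 90.0, 82.0 and 85.1 CPM to 75.2, 66.9 and 72.7 CPM (log2 fold change −0.26, SE 0.05, adjusted p = 1.7e-04). Col2a1 was called higher (1.57) from 0.709 to 1.35 CPM to 2.93 to 3.39 CPM, far under the 390 to 616 CPM of Ctrl+vehicle, and its call was lost in 4 of 9 refits, each lacking 1 sample (without Ctrl+FGF2 replicate 3 and without each knockdown replicate, adjusted p up to 0.082).

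Signals of the BMP and TGF-beta families bear on bone as well. Of 22 BMP and Id genes 7 rose (31.8% against 10.8% of all genes) and none fell, and 5 rose with the GC correction. Inhba, the activin A subunit, rose from 77.3, 67.1 and 66.4 CPM to 104, 95.6 and 104 CPM (log2 fold change 0.53, SE 0.06, adjusted p = 9.6e-08), and Chrdl1, an antagonist of BMPs, from 3.91, 3.49 and 4.11 CPM to 6.79, 7.45 and 7.61 CPM (log2 fold change 0.92, SE 0.16, adjusted p = 8.2e-05). The groups of both were apart. Id1, Id2 and Id3, direct targets of BMP signaling, were not called (−0.23, 0.13 and −0.15), although Id1 and Id3 passed the test in a fit of the 6 samples alone (adjusted p = 0.0018 and 0.0014), and Id4 rose by 0.33. Of 19 TGF-beta genes 5 rose and 4 fell (5 and 2 with the correction), with Pmepa1, a feedback inhibitor, at 0.78 (SE 0.10, adjusted p = 4.9e-07) and Tgfb1i1, the focal adhesion protein Hic-5, at −0.48 (SE 0.06, adjusted p = 1.7e-07). Wnt genes were near the background (3 higher and 2 lower of 27, and 3 and 1 with the correction), with Lgr6, a receptor of R-spondins, at 1.02 (SE 0.13, adjusted p = 1.3e-06).

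Interferon-stimulated genes, which answer to viral or double-stranded RNA, were higher: 13 of 26 rose and 1 fell (50% higher, median 0.43), and 10 rose and none fell with the GC correction (median 0.38). Among the 13, Ifit3b averaged 0.62 CPM in Ctrl+FGF2 and 1.26 CPM in knockdown samples, so the filter on low counts may have favored its rise. Mx2, of a family of antiviral GTPases, is annotated as a polymorphic pseudogene, so its RNA need not stand for a working protein. It was at 0.751, 0.698 and 0.426 CPM against 1.65, 1.65 and 1.84 CPM (log2 fold change 1.45, SE 0.33, adjusted p = 0.0014). Ifi44 was at 1.5, 2.95 and 1.63 CPM against 4.96, 4.38 and 4.60 CPM (log2 fold change 1.20, SE 0.22, adjusted p = 1.2e-04), and Ifit3 was at 2.10, 1.78 and 1.70 CPM against 3.74, 4.05 and 3.09 CPM (log2 fold change 0.96, SE 0.20, adjusted p = 7.4e-04). The groups were apart in each. The double-stranded RNA sensors Ifih1 and Eif2ak2 rose by 0.52 and 0.27, and Isg20 was the 1 member that fell (by 0.45), a call that was lost with the correction. Control and knockdown samples had received different siRNAs, a scramble and pools against Yap and Taz. The part of the siRNAs in these rises was not tested. Of 14 factors of RNA interference 3 rose and 1 fell (2 and none with the correction). Tnrc6a, which overlaps Gm45846 on its strand, was at 0.31, and Ago2 was at 0.04 and not called.

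AP-1 factors, which carry early responses to growth signals, were lower. Of 11 tested, 7 fell and none rose (63.6%, median −0.27), and in this list with a median GC content of 56.0% 4 fell with the GC correction (median −0.15). Atf3, a stress-induced factor, was at 14.2, 16.8 and 13.6 CPM against 8.35, 9.84 and 8.95 CPM (log2 fold change −0.71, SE 0.11, adjusted p = 1.3e-05). Fosl1, which encodes Fra-1, was at 92.0, 103 and 97.8 CPM against 75, 73.8 and 61.3 CPM (log2 fold change −0.48, SE 0.06, adjusted p = 3.9e-07). Jund fell by 0.49 and by 0.19 with the correction, Maff fell by 0.43 but not with the correction, and Fos was not called (0.18).

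Genes that report on the FGF and ERK pathway itself moved in both directions. Of 18 ERK feedback and early response genes, 3 rose (16.7%) and 6 fell (33.3%), against 10.8% and 13.6% of all genes. Their median was −0.05, and 4 rose and 3 fell with the GC correction. Spred1, an inhibitor of Ras, rose from 342, 343 and 349 CPM to 493, 445 and 486 CPM (log2 fold change 0.46, SE 0.04, adjusted p = 9.4e-11). Ier3 went the other way, from 25.3, 26.2 and 23.1 CPM to 15.9, 14.1 and 13.9 CPM (log2 fold change −0.77, SE 0.09, adjusted p = 1.6e-07). Dusp6, the ERK phosphatase, rose by 0.17, and Etv4, a target of ERK, was not called (−0.04), although it was with the correction (0.15). Among ligands, Fgf10 fell by 0.34 from 86.6 to 90.9 CPM to 65.0 to 72.6 CPM (SE 0.05, adjusted p = 3.7e-06). Fgf1 rose from 0.676, 0.698 and 0.709 CPM to 2.17, 1.65 and 2.01 CPM (log2 fold change 1.47, SE 0.31, adjusted p = 6.6e-04). It passed the filter on low counts only through the knockdown samples, so the filter favored a rise. In the EGF family Btc rose by 0.88 and Tgfa fell by 0.63.

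Of 22 neural crest and stemness factors, 3 rose and 8 fell (median −0.10), and 2 rose and 7 fell with the GC correction. Besides Ly6a, falls were seen in Gdpd5, from 12, 10.7 and 11 CPM to 7.48, 8.44 and 6.27 CPM (log2 fold change −0.60, SE 0.12, adjusted p = 3.2e-04), and in Myc, from 156, 165 and 159 CPM to 130, 136 and 129 CPM (log2 fold change −0.28, SE 0.04, adjusted p = 3.1e-06). The groups were apart in both. Nes, the intermediate filament nestin, rose by 0.54, and Sox2 and Tfap2a were not called (0.08 and −0.05).

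Calls among cell cycle genes depended on the GC correction. Of 36 genes of mitosis 15 rose and 1 fell (41.7% higher against 10.8% of all genes), but with the correction 2 rose and none fell, a share near the 4.88% of all genes. Of 36 genes of DNA replication 12 rose and 2 fell (33.3% higher), and 6 and none with the correction. Their medians were 0.10 and 0.11, and 0.06 and 0.09 with the correction. Single rises were small: Bub1 and Ttk, kinases of the spindle checkpoint, rose by 0.23 and 0.21, and Slbp, a binder of histone mRNA, by 0.22. None of these 3 genes was called with the correction. Of 21 G1 regulators 3 rose and 5 fell (2 and 1 with the correction), with Ccne2, a cyclin of S phase entry, from 30.9, 27.9 and 30.9 CPM to 43.5, 36.1 and 40.1 CPM (log2 fold change 0.41, SE 0.07, adjusted p = 1.3e-04).

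Genes of cell death changed in both directions. Bbc3, which encodes the killer protein Puma, was at 14.8, 16.7 and 14.9 CPM against 8.53, 8.60 and 6.86 CPM (log2 fold change −0.95, SE 0.11, adjusted p = 1.5e-07). Bmf, another BH3-only activator of death, rose from 8.26, 6.05 and 6.60 CPM to 13.4, 11.2 and 11.6 CPM (log2 fold change 0.79, SE 0.14, adjusted p = 1.1e-04). Bax fell by 0.51, but it overlaps Gm45808 on its strand, and reads shared by both could not be assigned. Of 13 genes of the BCL2 family 2 rose (15.4%) and 4 fell (30.8%), and 1 and 3 with the GC correction. Of 25 p53 targets 5 rose (20%) and 7 fell (28%), and 2 and 5 with the correction. Over all genes 10.8% were called higher and 13.6% lower.

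Guidance and adhesion receptors make up a further set. Of 37 ephrins, semaphorins and their receptors, 5 rose and 11 fell (median −0.11), and 4 and 5 with the GC correction. The receptors Epha2 and Epha3 moved apart, Epha2 from 133, 141 and 133 CPM to 94.4, 97.4 and 100 CPM (log2 fold change −0.48, SE 0.04, adjusted p = 6.0e-10) and Epha3 from 24.4, 23.6 and 24.5 CPM to 42.9, 38.1 and 41.2 CPM (log2 fold change 0.75, SE 0.06, adjusted p = 5.5e-10). Of 10 cadherins 4 rose and 1 fell (3 and 1 with the correction), the last being Cdh3, P-cadherin, from 2.18, 1.94 and 1.63 CPM to 0.609, 0.910 and 0.836 CPM (log2 fold change −1.27, SE 0.29, adjusted p = 0.0015). Adrenomedullin and its kin, a list that holds Adm, the largest of the named falls, fell in 4 of 6 genes with none higher. With the correction 4 were called lower too, but not the same 4, since Ramp3 lost its call (−0.29 without and −0.18 with it). Adm2 fell by 0.74 (SE 0.14, adjusted p = 2.1e-04). The prostaglandin synthases Ptgs1 and Ptges fell by 0.32 and 0.53. Apart from Ramp3, all of these named genes kept their calls with the correction.

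The other lists are read against 10.8% of all genes higher and 13.6% lower, and against 4.88% and 8.14% with the GC correction. The lists were chosen with earlier results of these data known. Some hold genes with the largest changes, such as Pcp4l1 and Cacng7 among the calcium genes. Their shares are descriptions and not tests. Of 22 calcium and calmodulin-linked genes 7 rose and 4 fell (4 and 4 with the correction), and of 11 Rgs and G protein regulators 3 rose and none fell (2 and 1). Of 11 FGF ligands and receptors 4 rose and 2 fell (2 and 2), and of 9 EGF family genes 2 rose and 3 fell (1 and 2). Prostaglandin genes had none higher and 3 lower of 8, with and without the correction. Of 18 chemokines and cytokines 3 rose and 3 fell (2 and 2), as did 3 and 3 of 19 PDGF, Hgf and Vegf factors (2 and 2). The IGF system had 1 higher and 3 lower of 13 (2 and 2), Notch genes 1 and 2 of 11 (1 and none), Hedgehog genes none and 1 of 9 (none and none), and lysosome and autophagy genes 3 and 7 of 26 (1 and 6). Single genes of these lists with clear changes were Igfbp6, a binder of Igf2, which fell by 0.52 (SE 0.05, adjusted p = 6.5e-09), and Nrp1, a receptor of semaphorins and Vegf, which rose by 0.36.

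**Figure D4:**
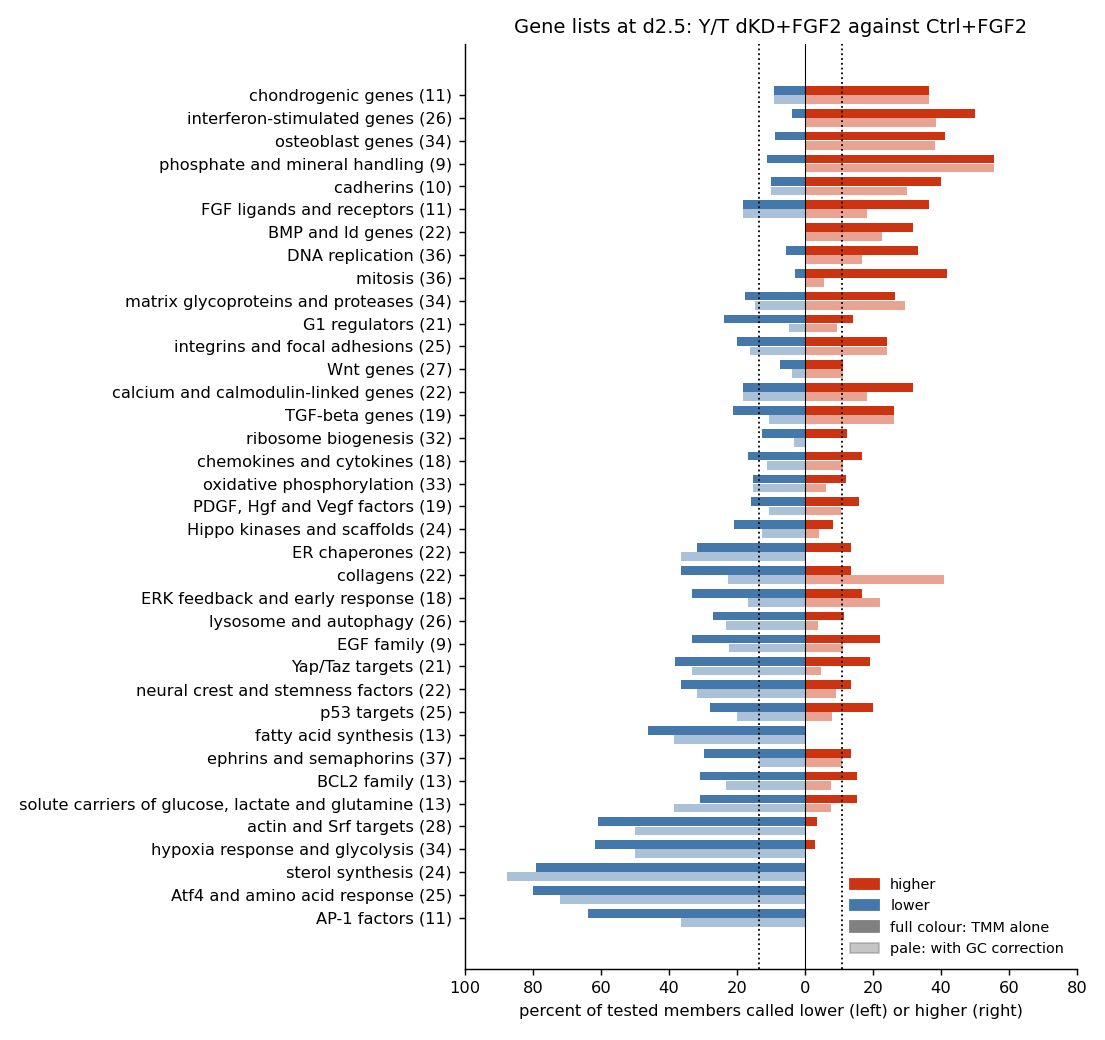
Percentage of the tested members of each gene list called higher (right) or lower (left), for lists with at least 5 called genes, with the value after the GC correction in pale bars. Dotted lines mark the 10.8% of all genes called higher and the 13.6% called lower. Sterol synthesis and the Atf4 list reach 79.2% and 80.0% lower, and interferon-stimulated genes 50% higher.

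The same contrast at d5 used 6 other samples, of which 13304 genes were tested, 2079 called higher (15.6%) and 2141 lower (16.1%). GEO's labels give the day as the batch, so the age of the culture and the batch cannot be told apart. Of 1465 genes called higher at d2.5 and tested on both days, 528 (36.0%) were called higher at d5 and 149 (10.2%) lower, and of 1833 called lower 541 (29.5%) were called lower and 222 (12.1%) higher. Among the 9547 genes not called at d2.5, 13.3% were called higher at d5 and 14.2% lower. The medians of bone and sterol genes kept their sign: osteoblast genes were 16 higher and 6 lower at d5 (median 0.18), and sterol genes 1 higher and 19 lower (median −0.55). Mitosis genes had 20 higher and none lower (median 0.67).

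Other lists had opposite directions on the 2 days. Of the 26 interferon-stimulated genes, 1 was called higher and 12 lower at d5 (median −0.34). In a fit of all samples 18 of them had a knockdown effect that differed between the days, against 2954 of all 13677 genes tested. Ifit3 went from 0.96 at d2.5 to −1.11 at d5 (difference −2.08, adjusted p from the interaction term of edgeR 1.4e-06). Of the 11 AP-1 factors tested at d2.5, 8 were higher and none lower at d5 (median 0.60), and the difference was called for 7. Fosl1 was 0.48 lower at d2.5 and 1.18 higher at d5. Zyx fell at d2.5 and was 0.23 higher at d5, and Dmp1 and Ibsp, higher on both days, had larger log2 fold changes at d5 (3.25 and 2.31). Enpp1 was at 1.61 and 1.96, a difference that did not pass the test (adjusted p = 0.096).

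**Figure D5:**
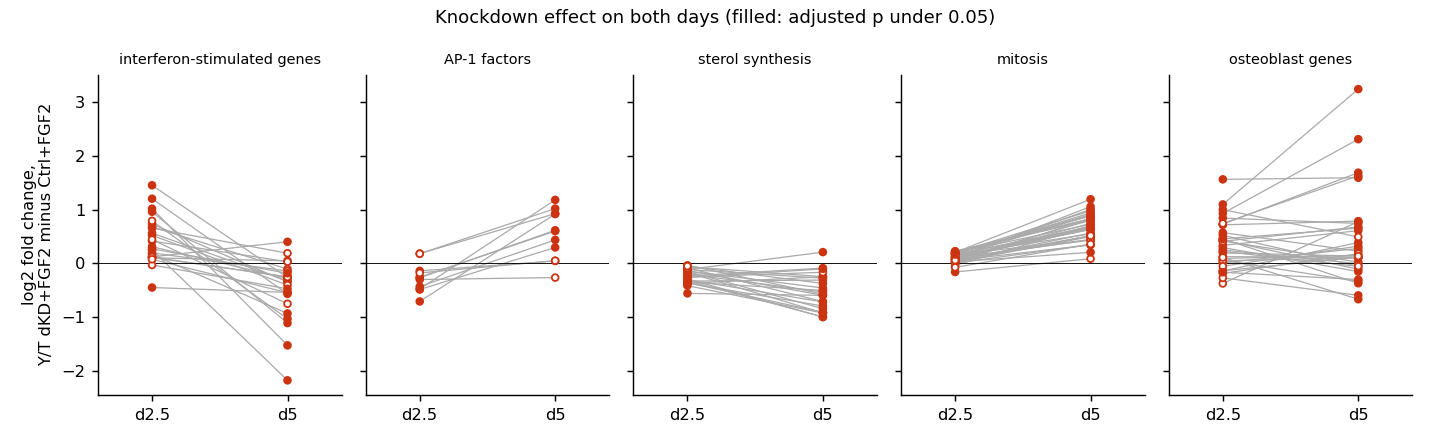
Log2 fold change of Y/T dKD+FGF2 over Ctrl+FGF2 at d2.5 and at d5 for each gene of the lists of interferon-stimulated genes, AP-1 factors, sterol synthesis, mitosis and osteoblast genes, with a line joining the days and filled points where the adjusted p is under 0.05. Medians go from 0.43 to −0.34 for interferon-stimulated genes and from −0.27 to 0.60 for AP-1 factors, and stay below 0 for sterol genes (−0.25 and −0.55).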

How the data were processed

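Poly(A) RNA of 18 O9-1 samples was sequenced with a SMARTER kit. For each sample the authors deposited unnormalized gene-level counts, one column per strand setting, and the counts of the reverse strand were used, which held 96.2% to 96.4% of the strand-assigned reads in the 6 samples. The submitters' processing notes name FastQC, STAR, Picard, featureCounts and mm10, and versions are not given in the sources used here. Rows that name no gene (30.8% to 34.4% of each sample) were left out. Names and coordinates came from GENCODE M21 (GRCm38), which matched 55154 of 55335 identifiers.

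Counts of the 9 d2.5 samples were filtered with filterByExpr, scaled by TMM and fitted in edgeR 4.0.16 (R 4.3.3) with the quasi-likelihood test, without a block, and p-values were adjusted by Benjamini-Hochberg over all genes. On simulated data with this design 58%, 92%, 96% and 100% of 50 genes each with 1.25, 1.5, 2 and 3-fold changes were recovered among 13523 genes tested, and 5.46% of the calls were false. The simulated counts held few changed genes and no shift with GC content, unlike the data. The false share among the calls of the real data is therefore not known from it. The test of a difference between the days came from 1 fit of all 18 samples with an interaction term. The GC correction was a natural spline (5 degrees of freedom) in GC percent, fitted in each sample, and was added after seeing the data.

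Genes named were the siRNA targets, the 12 largest rises and falls among called genes whose groups did not overlap (mean log2 CPM 1 or more), the 8 largest of each among abundant genes (mean log2 CPM 5 or more), up to 4 called genes with the largest change in each list, and list genes needed to say what did not pass. Further genes were chosen after their values were seen: Actb, Ank, Atf4, Axl, Ccn1, Crim1, Dusp6, Eif2ak2, Eno1, Epha2, Epha3, Fabp4, Ifih1, Isg20, Krt19, Myc, Pkm, Pparg, Sp7, Spp1, Srf, Thbs1 and Vcl. The samples, lists and genes were chosen with earlier results of these data known. Alternatives tried were other size factors, other filters, DESeq2 1.42.0, other sets of samples, a replicate block, counts of both strands, stricter thresholds and leaving out each sample. Some list genes are counted but not reported here by name.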

Additional observations from a re-analysis of the deposited data

Results flagged for a closer look

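Groups of 3 samples were not examined for single outlying samples. The knockdown effect differed between the days, by the interaction term of edgeR's quasi-likelihood test over the 14198 genes tested, for 27 of 43 named genes examined. Over all genes, 2954 of the 13677 tested at d2.5 had a called difference, and the 43 were taken from genes with large changes at d2.5, which enter the difference. The values here are the log2 fold change at d5 minus that at d2.5, and day and batch cannot be told apart in any of them.

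Among genes higher at d2.5, the difference was −2.01 for Cdo1, −1.78 for Ifi44, −2.08 for Ifit3, −2.55 for Ifit3b (whose d2.5 call was lost in 4 of the 9 fits that left out 1 sample, adjusted p up to 0.178), −1.72 for Mx2, −1.27 for Pcp4l1, −1.14 for Rgs4, −1.13 for Arhgef6, −0.84 for Hapln1, −0.57 for Sertad4, −0.43 for Megf10 and −0.37 for Lifr. It was 2.15 for Dmp1 and 1.38 for Ibsp, which had larger rises at d5. Ifit3b averaged 0.62 CPM in Ctrl+FGF2 and 1.26 CPM in knockdown samples at d2.5, so the filter on low counts may have favored its rise there.

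Among genes lower at d2.5, the difference was 1.66 for Fosl1, 1.62 for Atf3, 1.54 for Aqp5, 1.06 for Ly6c1, 0.99 for Kcna4, 0.92 for Zyx, 0.87 for Maff, 0.78 for Jund, 0.53 for Ly6a and 0.54 for Adm, the last close to the threshold (adjusted p = 0.0497). It was −0.97 for Cyp26b1, −0.95 for Syk and −0.35 for Dhrs9, which had larger falls at d5.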

How the results depend on the processing

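The count of 3345 called genes (1483 higher and 1862 lower) was 3390 and 3389 with relative log expression and upper-quartile factors, 3208 without a filter, 3381 with a minimum of 10 counts, 3847 in a fit of the 6 samples alone, 2984 in a fit of all 18 samples and 3265 with counts of both strands. DESeq2 called 2282 (1043 higher and 1239 lower). An adjusted p under 0.01 left 2057 (845 and 1212), a change of at least 2-fold 81 (55 and 26) and the GC correction 1780 (667 and 1113). With 1 sample left out the count ran from 2239 to 3814, that of higher genes from 916 to 1731 and that of lower genes from 1323 to 2083. The lowest values were all those without Y/T dKD+FGF2 replicate 3. The same-direction count on both days, 1069, was 657 with the GC correction on each day. With the replicate number as a replicate block 3226 genes were called (1420 and 1806). Same-numbered samples did not deviate together (correlations −0.018, −0.0017 and −0.029). These values show no shared shift, but they cannot exclude that the numbers pair the samples. Of 225 named genes, 50 lost their call with the GC correction and 18 with all 18 samples, 27 of the 212 with an adjusted p did so with DESeq2, and 49 changed their call or sign in at least 1 fit without a sample. With the GC correction Nol6, Vegfb and Smo changed sign and were not called (0.0037, 0.068 and 0.028). Genes not called and close to 0 changed sign too: with the correction Lats1 (−0.030), Stk3 (−0.089), Tead1 (−0.043), Tead3 (0.051) and Etv4 (0.15), the last of which was then called, and Tead2 in the fit of 6 samples (−0.00019) and with counts of both strands (−0.0048). Without 1 sample Tead1 ran from −0.0086 to 0.049 and Tead2 from −0.045 to 0.042. The cause of these shifts was not tested. Depth limits genes near 1 CPM, such as Col2a1, Fgf1, Itga4 and Mx2.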
